A study of Rattus norvegicus with 6 samples.

Results

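Of the 758 rat microRNAs on the array, 138 carry a number of 1000 or more after the prefix rno-miR-, and these late-numbered microRNAs were chosen by that number alone. Another 603 microRNAs have a lower number and served for comparison, and the remaining 17 belong to the let-7 family, which has no such number. The microRNAs were measured in plasma of 3 healthy, untreated male Sprague-Dawley rats aged 10 weeks. Each rat gave 1 arterial sample from the abdominal aorta and 1 venous sample from the postcava, the large vein of the lower body. Each of the 6 EDTA plasma samples was spun, passed through a fine filter and hybridized to its own single-colour Agilent array, so that the 3 arterial and 3 venous samples were paired by rat. Both samples of rats 1 and 2 lay on 1 slide and both samples of rat 3 on another, so that rat 3 and its slide cannot be told apart. Plasma holds RNA shed by many tissues, and fewer source cells and less RNA released per cell cannot be told apart in it.

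MicroRNAs are short RNAs that guide Argonaute proteins to matching messenger RNAs and lower their output. Each is cut from a hairpin precursor, of which either arm (5p or 3p) can persist. Pairing rests mainly on the seed, here bases 2 to 8 from the 5′ end, and microRNAs with the same seed form a family. Numbers are given in the order of registration, so that a high number marks a microRNA that entered the registry late, often from deep sequencing. Many late entries are little studied, come from a single locus or lie opposite an older microRNA. In plasma, microRNAs from blood cells and liver are among the best known, and little is established for most late-numbered ones.

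The sequences of the late-numbered microRNAs that gave most of the signal are shown first, because they carry the levels described next. RefSeq on the GRCr8 assembly held a mature sequence for 125 of the 138, including all those printed here. Seeds are in capitals, and the lines run from the brightest down.
rno-miR-3473: uCUAGGGCuggagagauggcua
rno-miR-1224: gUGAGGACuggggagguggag
rno-miR-3593-3p: cUUCAACCuuaagggggccuca
rno-miR-1896: uGGUGGGUgaggaggagg
rno-miR-3584-5p: gGGAGGAGuccaggaggc
rno-miR-6216: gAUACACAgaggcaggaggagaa
On GRCr8, miR-3473 lies at chr13:42051730-42051751 on the plus strand within the span of Zranb3. MiR-1224, known as a mirtron that splicing releases from an intron of Vwa5b2, lies at chr11:93811355-93811375 on the minus strand. MiR-1896 lies at chr17:47861018-47861035 on the minus strand within Zscan26, and miR-3584-5p at chr1:256727582-256727599 on the minus strand within Itprip. MiR-3593-3p at chr6:78987770-78987791 and miR-6216 at chr3:65165595-65165617, both on the minus strand, lie in the span of no other listed gene. Exon and intron positions were not used here. Of these 6, all but miR-3593-3p are rich in purines, which make up 63.6 to 83.3% of their bases, against a median of 50% over the 125 sequences. This did not hold for the other 12 detected on all arrays, with a median of 39.5% purines, and the median of all 18 was 47.7% against 49% for undetected ones. G makes up 22.7% of miR-3593-3p and 39.1 to 66.7% of the other five, against a median of 23.8%.

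Detection, the call that the image analysis software gives to each microRNA, was rarer among late-numbered than among lower-numbered microRNAs on every array. Of the 138, rats 1, 2 and 3 had 22, 22 and 19 detected in their arterial samples, and 20, 22 and 21 in their venous samples. That is 13.8 to 15.9% of the late-numbered microRNAs, against 18.1 to 24.0% of those numbered below 1000. The late-numbered share was lower by 6.26 ± 0.81 percentage points (SD, n = 3 rats, mean of both samples of a rat) and lower on 6 of 6 arrays. Single arrays varied more than these means of rats. In rats 1, 2 and 3 the gap was -7.94, -6.28 and -8.12 points in arterial and -3.58, -8.10 and -3.52 points in venous plasma. With 3 rats the exact sign-flip test (two-sided) cannot go below the p of 0.25 that it gave.

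**Figure D1:**
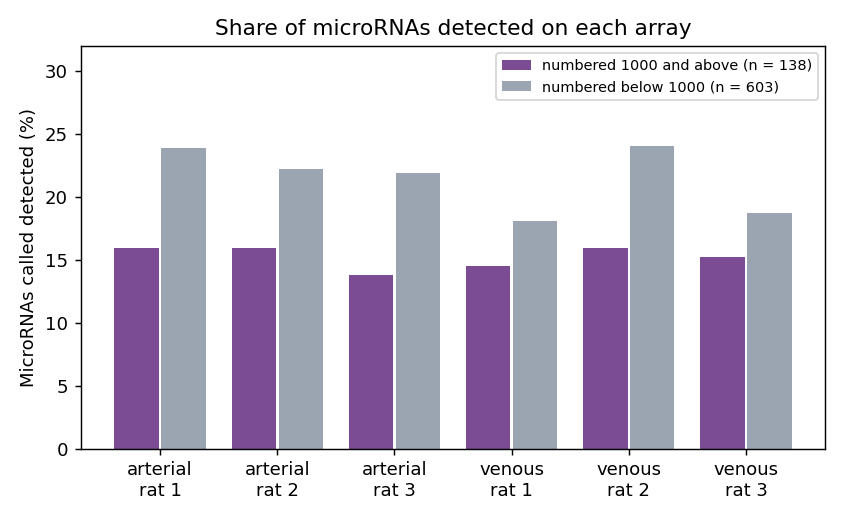
Bars show the share of microRNAs (%, vertical axis) called detected on each of the 6 arrays, for the 138 numbered 1000 and above and the 603 numbered below 1000. The late-numbered share stays between 13.8 and 15.9%, below the lower-numbered share on each array.

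The count of detected microRNAs ranged from 19 to 22 of the 138 late-numbered and from 109 to 145 of the 603 lower-numbered ones. The count of 109 came from venous plasma of rat 1. On that array the SD of the negative control spots was 14.3, against 2.12 to 3.05 on the other arrays. What this did to the detection calls was not tested. The arterial minus venous difference in the late-numbered count was 2, 0 and -2 in rats 1, 2 and 3, with a mean of 0 (exact permutation within rats, p = 1). Over the 6 arrays, 18 late-numbered microRNAs were detected on all, 2 on 5 arrays, 6 on 1 or 2 arrays and 112 on none. Detection on all arrays thus held for 13.04% of the late-numbered and for 100 of 603, or 16.6%, of the lower-numbered microRNAs. By number, 5 of 26 microRNAs in the 1000s were detected on all arrays, the single one in the 2000s, 4 of 19 from 3000 to under 3500, 5 of 66 from 3500 to under 4000 and 3 of 23 in the 6000s. The 2 numbered from 4000 to under 6000 and the 1 above 7000 were detected on no array.

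The 18 microRNAs detected on every array fell into 6 bright ones and 12 dim ones. Values are background-subtracted intensities averaged over the spots of a microRNA, before any scaling between arrays. Brightness per molecule differs between probes, so that a brighter microRNA is not shown to be the more abundant one.

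MiR-3473 was the brightest microRNA of the whole array in all 6 samples. Its arterial intensity was 7314, 4511 and 4109 in rats 1, 2 and 3, and its venous intensity was 4175, 4638 and 2149. It alone made up 22.7 to 33.9% of the summed intensity of an array. The groups overlapped, and the venous sample of rat 3 was the lowest. Its 2 probes differed in brightness, with 1110 to 2472 arterial units for the dimmer and 7108 to 12156 for the brighter, and both had their highest value in arterial plasma of rat 1.

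MiR-1224 held rank 2, 3 or 4 on each array, beside miR-451-5p, the erythrocyte microRNA, at rank 2 or 3. In rats 1, 2 and 3, miR-1224 gave arterial intensities of 863, 1428 and 1128 and venous intensities of 375, 799.9 and 474. The arterial intensities lay above all venous ones, before scaling between arrays. MiR-3593-3p reached 450.2 in arterial plasma of rat 1 and stood between 88.5 and 158 in the other samples. MiR-1896 ranged from 51.5 to 255 and miR-6216 from 42.4 to 139, both lowest in venous plasma of rat 3 and highest in arterial plasma of rat 1, with overlapping groups.

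MiR-3584-5p was the single late-numbered microRNA to pass the test between arterial and venous plasma given further on. Its arterial values were 138, 203 and 188 in rats 1, 2 and 3, and its venous values were 48.8, 113 and 49.7. Every arterial sample was above every venous one, and the ratio within a rat was 2.83, 1.80 and 3.80. Its 2 probes gave close values, with ratios of 2.84, 1.82 and 3.90 for the dimmer and 2.82, 1.77 and 3.70 for the brighter probe.

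**Figure D2:**
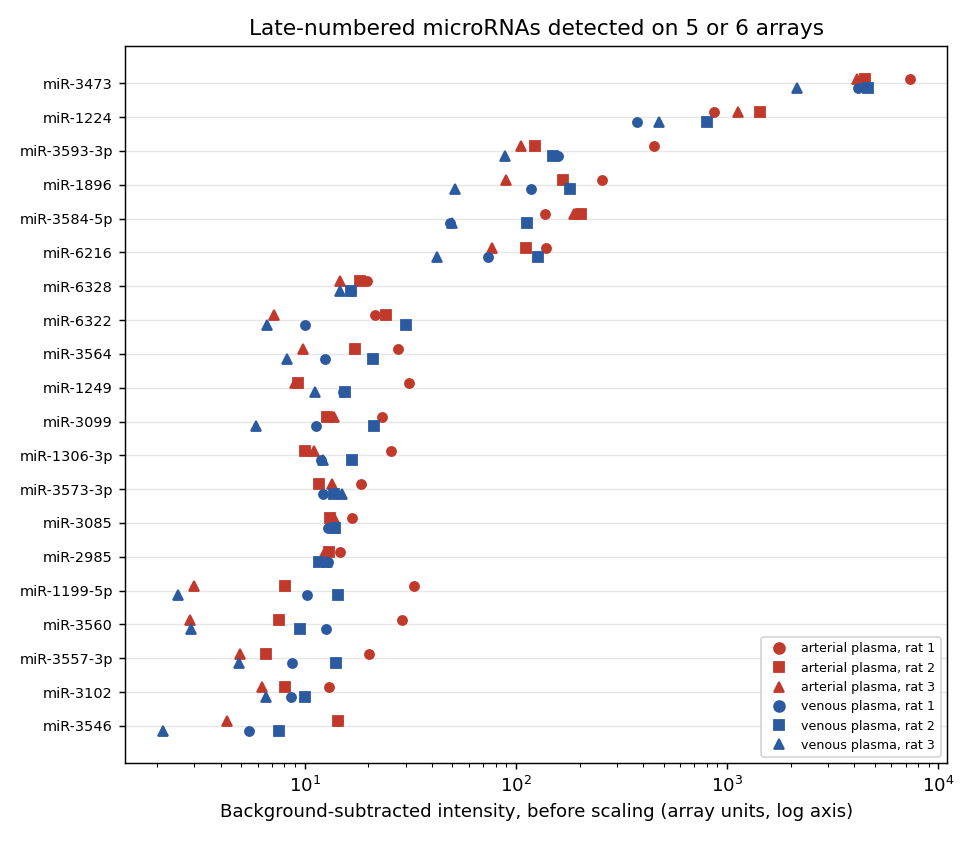
Each point is the background-subtracted intensity (horizontal log axis, array units, no scaling between arrays) of 1 late-numbered microRNA in 1 sample, for the 20 detected on 5 or 6 arrays; colour gives arterial or venous plasma and shape the rat. MiR-3473 lies between 2149 and 7314, and miR-3584-5p has its 3 arterial points above its 3 venous points.

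The 12 dim microRNAs detected on all arrays were miR-6328, miR-6322, miR-3564, miR-1249, miR-3099, miR-1306-3p, miR-3573-3p, miR-3085, miR-2985, miR-1199-5p, miR-3560 and miR-3102. Their mean intensities lay between 8.72 and 16.7, and single values between 2.50 and 32.7, so that no dim value reached the lowest of the bright ones, 42.4. MiR-1306-3p lies within Dgcr8, which encodes the partner of Drosha in cutting microRNA hairpins. MiR-3573-3p lies within Efnb1, an ephrin ligand gene, and miR-2985 within Gria2, which encodes a glutamate receptor subunit.

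Some of the dim microRNAs held nearly the same intensity on all 6 arrays, although the arrays differed in brightness. They are printed because of that flat profile, with seeds in capitals.
rno-miR-2985: uGUUAUAGuaucccaccuaccc
rno-miR-3085: uCUGGCUGcuauggcccccuc
rno-miR-6328: aGGCCUGCucugagcccccgc
rno-miR-3573-3p: uUCCUAACucugcccccucccau
MiR-2985 gave 14.7, 12.96 and 12.5 in the arterial samples of rats 1, 2 and 3, and 12.9, 11.6 and 12.7 in the venous ones. Its highest value was 1.27 times its lowest. The same ratio was 1.30 for miR-3085, 1.35 for miR-6328 and 1.58 for miR-3573-3p. Over the same arrays the median intensity of the 126 microRNAs detected on all of them spanned 3.08-fold, from 17.2 to 52.9. A ratio under 1.6 was found in 4 of 18 late-numbered microRNAs and in 3 of 100 lower-numbered ones, miR-345-5p, miR-409a-3p and miR-702-3p. The median ratio was 3.43 in the late-numbered and 3.55 in the lower-numbered microRNAs. The limit of 1.6 was set after the values were seen, and the flat profiles were not tested. Where an array is dim as a whole, scaling raises such a flat microRNA: miR-2985, miR-3085, miR-6328 and miR-3573-3p all had their highest scaled level in venous plasma of rat 3, the dimmest array.

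**Figure D3:**
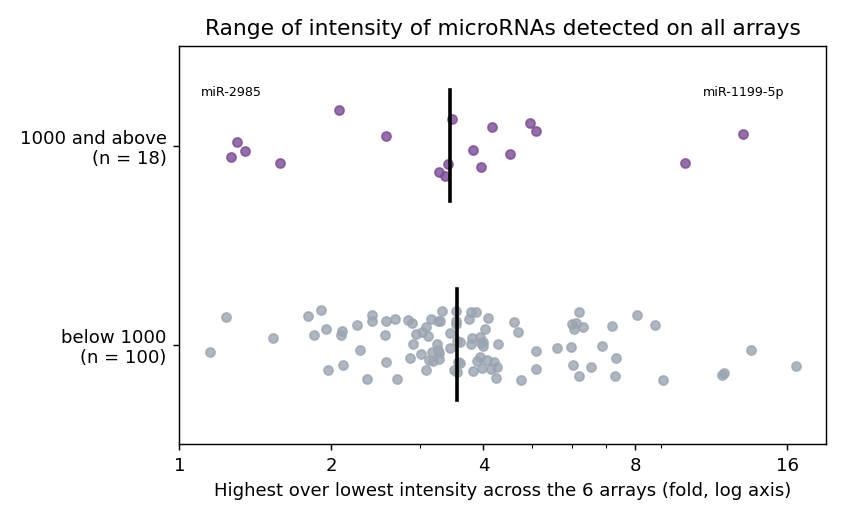
Each point is 1 microRNA detected on all 6 arrays, placed by its highest over lowest intensity before scaling (fold, horizontal log axis), with the median as a black bar; vertical jitter has no meaning. The late-numbered microRNAs run from 1.27 for miR-2985 to 13.1 for miR-1199-5p, and their median of 3.43 lies near the 3.55 of the lower-numbered ones.

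At the other end, miR-1199-5p and miR-3560 varied most. MiR-1199-5p gave 32.7, 8.05 and 3.00 in the arterial and 10.3, 14.3 and 2.50 in the venous samples of rats 1, 2 and 3. MiR-3560 measured 28.7, 7.55 and 2.87 in arterial and 12.6, 9.45 and 2.88 in venous plasma. Both were highest in arterial plasma of rat 1 and had their 2 lowest values in rat 3. For each of them, and for miR-3546, only 1 of the 2 probes carried most of the signal. For miR-1199-5p the dimmer probe gave 5.85 in arterial plasma of rat 1 and values below 0 in the other samples, and the brighter 6.45 to 59.6. The dimmer probe of miR-3560 gave -2.50 to -0.98 and the brighter 6.73 to 59.95, and for miR-3546 the ranges were -0.93 to 1.06 and 4.72 to 28.1. Which probe reports the microRNA was not tested.

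Intensities of the late-numbered microRNAs peaked on a different array than those of the lower-numbered ones. Arterial plasma of rat 1 gave the highest intensity for 15 of the 18 late-numbered microRNAs detected on all arrays, and for 29 of the 100 lower-numbered ones. Venous plasma of rat 2 gave it for 1 of 18 and for 50 of 100. Venous plasma of rat 3 gave the lowest value for 9 of 18 and for 76 of 100. After scaling, 8 of the 18 had their highest level in arterial plasma of rat 1 and 7 in venous plasma of rat 3, while miR-3473 was level on all arrays. Of the 100, 14 were highest in arterial plasma of rat 1 and 33 lowest there. Their highest level fell most often in arterial plasma of rat 2, for 23, and of rat 3, for 17, then in venous plasma of rat 3, for 16, with 10 shared between arrays. These are counts over microRNAs of the same arrays, and no test was made on them.

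None of the 18 microRNAs detected on all arrays shared its seed with another rat microRNA in RefSeq. Over all late-numbered microRNAs with a sequence, 10 of 125 did so, or 8%, and all 10 were undetected on every array. Among lower-numbered microRNAs with a sequence 155 of 544 shared a seed, 28.5%, and among those of them detected on all arrays 39 of 88. For 9 of the 10 a single other microRNA had the seed: miR-1843a-3p pairs with miR-1843b-3p, miR-3084a-5p with miR-3084c-5p, and miR-3573-5p has the seed of miR-423-5p. The tenth, miR-3596d, shares its seed with 5 others, miR-98-3p and the 3p arms of let-7a-1, let-7b, let-7c-2 and let-7f-1. MiR-1843a-3p, which the study lists as higher in venous plasma, was detected on no array, with intensities from -0.90 to 0.68.

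Where the array held both arms of a late-numbered hairpin, at most 1 was detected. This was so for 7 of 30 such hairpins, and the other 23 had no detected arm. For miR-3584 the 5p arm had a median intensity of 125 over the 6 arrays and the 3p arm 0.84. The miR-3593 hairpin was read on the 3p side, with a median of 137 against -1.21 for 5p. MiR-1306-3p had a median of 12.1 and its 5p arm 1.82, and miR-3573-3p 13.6 against -1.06. For miR-1199 the 5p arm had a median of 9.17 and the 3p arm -0.69.

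Many late-numbered microRNAs lie opposite an older one, on the other strand of the same locus. Among the 125 with a sequence, 32 overlapped a lower-numbered or let-7 microRNA in this way over 16 to 22 complementary bases, and 29 of the 32 were numbered from 3500 to under 4000. Of these 32, 3 were detected on any array, or 9.38%, against 22 of the other 93, or 23.7%. Pairs are printed with the complementary stretch in capitals, because they show that the 2 names are readings of the 2 strands of 1 site.
rno-miR-3596a: AACUAUACAACCUACUACCUCA
rno-let-7a-5p: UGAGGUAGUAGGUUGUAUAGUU
rno-miR-3591: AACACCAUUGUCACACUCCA
rno-miR-122-5p: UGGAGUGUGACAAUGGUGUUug
rno-miR-3546: AUAACCCGGGCCAAAAGCUCac
rno-miR-208a-5p: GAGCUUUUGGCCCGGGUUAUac
rno-miR-3560: CAAAUCCUUGCCCGGGUGCAUU
rno-miR-501-3p: AAUGCACCCGGGCAAGGAUUUGg
The listed miR-3596a and let-7a-5p lie at chr8:50805219-50805240, with the late-numbered one on the minus strand, and miR-3591 lies at chr18:61028831-61028850 on the minus strand. MiR-3546 lies at chr15:32395601-32395622 on the plus strand within the span of Myh6, the gene of the alpha myosin heavy chain of heart muscle, and miR-3560 at chrX:17927239-17927260 on the minus strand within Clcn5.

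In 10 of the 32 pairs the older microRNA was detected on all arrays, and in 9 of those 10 the late-numbered one was detected on none. Over all 32 pairs the late-numbered one was detected on none in 29, so that 9 of 10 is near the share of the whole set. Across these 9 pairs the late-numbered microRNAs stayed between -2.53 and 2.24, while their opposites ranged from 7.25 to 635. MiR-122-5p, the abundant microRNA of hepatocytes, spanned 47.0 to 635, and miR-3591 opposite it 0.65 to 2.24. Let-7a-5p spanned 27.8 to 124, and miR-3596a 0.80 to 1.6.

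The exception among the 10 was miR-3546, opposite miR-208a-5p, a microRNA of heart muscle that measured 105 to 842. MiR-3546 itself was detected on 5 arrays, at 14.3, 14.4 and 4.29 in the arterial and 5.44, 7.57 and 2.12 in the venous samples of rats 1, 2 and 3. It was higher in the arterial sample of each rat, by 2.63 and 1.90 times in rats 1 and 2, although the groups overlapped. In rat 3 the venous value was not well above background, and no ratio is given. MiR-3557-3p and miR-3560 had the reverse pattern, with the late-numbered strand detected and the older one not. MiR-3557-3p was detected on 5 arrays and ranged from 4.90 to 20.2, while miR-378a-5p opposite it ranged from -0.38 to 1.91. MiR-3560 ranged from 2.87 to 28.7 and miR-501-3p from -0.93 to 1.48.

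**Figure D4:**
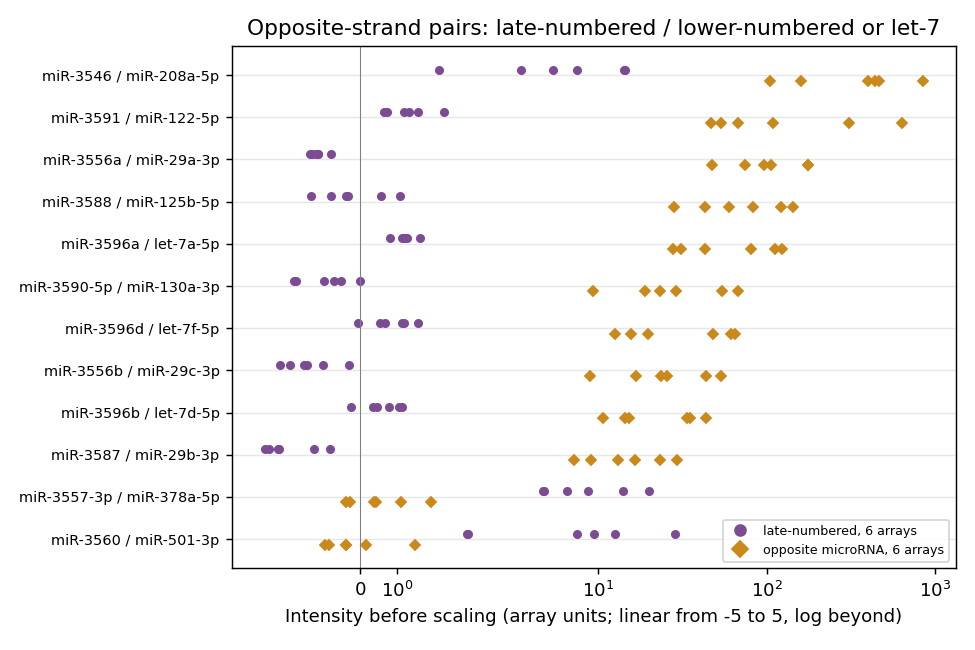
Points give the intensity before scaling (horizontal axis, linear from -5 to 5 and logarithmic beyond) on each of the 6 arrays for 12 opposite-strand pairs, those whose older microRNA was detected on all arrays or whose late-numbered one was detected on any. In 9 pairs the late-numbered microRNA stays at or below 2.24, and the lowest 2 rows show the pairs in which only the late-numbered microRNA was detected.

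To compare arterial with venous plasma, intensities were brought to a common distribution by quantile normalization and put on the log2 scale with a floor of 1. Each microRNA was then tested by limma, with both samples of a rat treated as a pair. At the study's unadjusted cutoff of 0.025, 1 late-numbered microRNA was higher in arterial plasma, miR-3584-5p, and 0 were higher in venous plasma. MiR-1843a-3p, which the study lists as higher in venous plasma, lay at the floor in every sample, so that its difference here was 0. Over all 758 microRNAs 4 were called arterial higher, or 0.528%, and 2 venous higher, or 0.264%. The late-numbered count of 1 in 138 is close to this background. Both shares include microRNAs with a difference of exactly 0, which could not be called. These were 82 of the 138, all under the floor on every array, and 378 of all 758. None of the 138 passed a Benjamini-Hochberg adjusted p of 0.05 in limma, and 0% of all 758 did. By limma at an unadjusted p under 0.05 the late-numbered count was also 1, against 12 of 758, or 1.58%. The methods' t-test called 0 late-numbered microRNAs at the cutoff and 4 of 758, or 0.528%.

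MiR-3584-5p had a scaled log2 level of 7.36 ± 0.54 in arterial and 6.31 ± 0.33 in venous plasma (SD, n = 3 each). The difference was 1.05 on the log2 scale with an SE of 0.18, and it was 0.69, 1.33 and 1.14 in rats 1, 2 and 3. Its limma p was 0.0232 before and 1 after adjustment over 758 microRNAs. In the fit restricted to the 126 microRNAs detected on all arrays, its limma p was 0.0032 before and 0.20 after adjustment. Over the alternatives to the main processing, it passed the unadjusted cutoff in 11 and fell short of it in 8. Leaving out rat 2 gave a difference of 0.91 and leaving out rat 3 gave 1.01, neither past the cutoff. Without the rat block the difference stayed at 1.05 but no longer passed it, and without scaling between arrays it was 1.42 and did not pass either.

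MiR-3584-5p was also the single late-numbered microRNA with every arterial value above every venous one after scaling, as were 6 of all 758, or 0.792%. In the other direction miR-1306-5p alone had every arterial value below every venous one, again against 6 of 758, or 0.792%, but it was detected on no array. Among the 18 detected on all arrays, only miR-3584-5p was higher and only miR-3102 lower in the arterial sample of all 3 rats, against 11 higher and 12 lower of the 100 lower-numbered ones. The median difference of the 18 was -0.04, with a range from -0.42 to 1.05, and that of all 126 detected on every array was 0.00, with a range from -0.87 to 1.16. MiR-3593-3p differed by 0.11 (SE 0.34), miR-1896 by -0.03 (SE 0.07) and miR-6216 by 0.14 (SE 0.07), none past the cutoff. MiR-3546 differed by 0.82 (SE 0.26) and miR-3557-3p by -0.35 (SE 0.38), neither past the cutoff, with 1 array of each below detection. Both depended on the processing. MiR-3546 ranged from 0.07 with normexp to 1.62 with the software's own total signal per microRNA. That total signal replaced the spot average and was quantile-normalized in the same way. MiR-3546 passed the cutoff without scaling, in the authors' table, in the fit restricted to microRNAs detected on any array and without rat 2. MiR-3557-3p was -1.41 with the software's total signal per microRNA, and without rat 1 it was -0.75 and passed the cutoff.

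The difference of miR-1224 depended on the scaling. Quantile normalization replaces each intensity by a value for its rank, and for the few brightest microRNAs the ranks hardly move. MiR-3473 held rank 1 on every array, so that its scaled level was 12.13 in all 6 samples and its difference was set to 0 by the scaling. MiR-1224 held rank 3 in all arterial samples and ranks 4, 3 and 2 in venous plasma of rats 1, 2 and 3. Its difference was then 0.66, 0 and -0.79 in these rats, with a mean of -0.04 that did not pass the cutoff. Scaled to the 75th percentile of microRNAs detected on all arrays, the difference was 0.67 and above 0 in all 3 rats, but also short of the cutoff. Without scaling it was 1.10 and passed the cutoff, where the median difference of the 126 was itself shifted by 0.40 toward arterial plasma. The 2 probes of miR-1224 also differed, with within-rat ratios of 2.19, 1.00 and 1.19 for the dimmer and 2.34, 1.92 and 2.65 for the brighter probe.

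**Figure D5:**
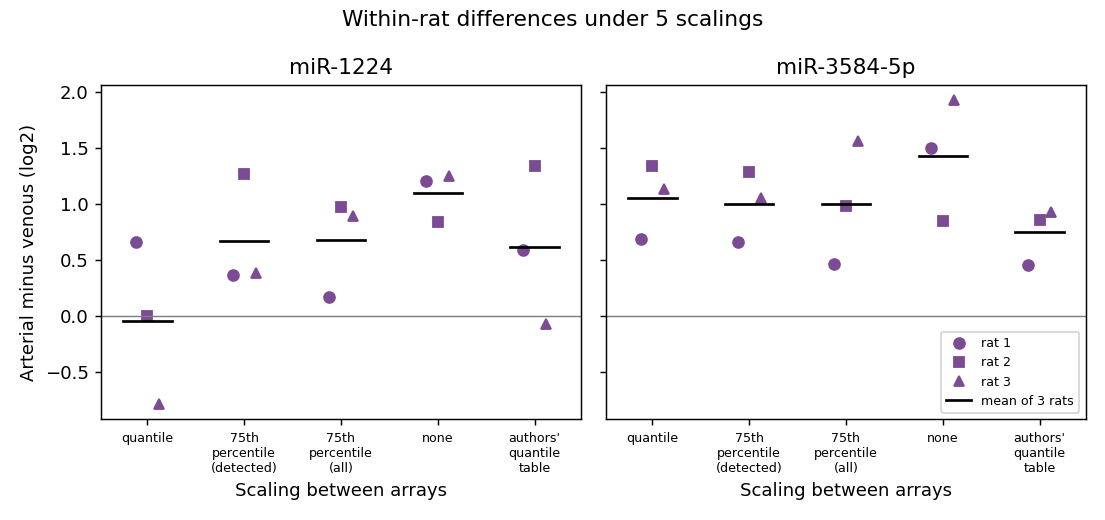
Points give the arterial minus venous difference (vertical axis, log2) of miR-1224 and miR-3584-5p in each rat under 5 scalings between arrays, and bars give the mean of 3 rats. The mean of miR-1224 moves from -0.04 to 1.10, while miR-3584-5p stays above 0 in every rat under each scaling, with means from 0.75 to 1.42.

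Differences among the rats were tested in the same fit with the moderated F-test of limma. No late-numbered microRNA passed an adjusted p of 0.05, and 0% of all 758 did. An unadjusted p under 0.05 was found for 2 of the 138, miR-3560 and miR-3596d, the latter detected on no array. Over all microRNAs it was found for 58 of 758, or 7.65%, so that the late-numbered count is below this background and the values of miR-3560 are given as a description. MiR-3560 had scaled levels of 4.68 and 4.05 in rat 1, 2.74 and 2.64 in rat 2 and 1.75 and 2.26 in rat 3, arterial before venous. Both samples of rat 1 were above those of the other rats and both of rat 3 below them. With the fit restricted to the 201 microRNAs detected on any array, miR-3560 had an adjusted p of 0.0358 in limma, as did miR-6215. The latter was detected on 1 array only, with both samples of rat 3 at the floor. In that fit 24 of the 201, or 11.9%, passed an adjusted p of 0.05, so that 2 of 26 late-numbered microRNAs is no more than this background.

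As a group, the late-numbered microRNAs took 43.7, 37.4 and 40.8% of the summed intensity of the arterial arrays of rats 1, 2 and 3. On the venous arrays they took 42.0, 30.9 and 40.5%. The arterial share was higher by 1.78, 6.53 and 0.31 percentage points in these rats, with a mean of 2.88 (exact permutation within rats, p = 0.25, the smallest that 3 rats allow). Rat 2 gave most of this mean, which was 1.05 without it, and the authors' table gave 1.28. Without miR-3473, the share of the remaining signal was 15.5, 16.7 and 17.2% in arterial and 12.2, 10.6 and 16.6% in venous plasma. MiR-3473 thus supplied the larger part of the group's signal on every array.

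The typical late-numbered microRNA was dimmer than the typical older one. Among microRNAs detected on all arrays, the median intensity of the 18 was 28.2, 15.2 and 13.6 in arterial and 12.9, 18.8 and 13.3 in venous plasma, against 39.1, 43.2 and 29.99 and then 23.1, 54.4 and 17.8 for the 100 lower-numbered ones. On the scaled log2 levels the median was lower by 0.94 ± 0.26 (SD, n = 3 rats) and lower on 6 of 6 arrays (exact sign-flip test, p = 0.25, the smallest possible). With normexp background correction the difference was -0.28, and in the authors' table it was -0.38.

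Markers of likely sources were read beside these values. The summed scaled level (log2) of 5 erythrocyte microRNAs was 10.99 to 11.14 in arterial and 10.73 to 11.22 in venous plasma, with 4 detected on all arrays. That of 5 platelet and leukocyte microRNAs, all detected on every array, was 9.001 to 9.91 and 9.40 to 9.84. The 3 liver microRNAs summed to 6.21 to 9.19 and 6.56 to 8.06, with miR-194-5p undetected on every array, and the 4 muscle microRNAs to 4.25 to 5.50 and 4.27 to 5.56, with miR-1-3p and miR-133a-3p undetected. None of these markers passed the cutoff between arterial and venous plasma, and their part in the late-numbered values was not tested.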

How the data were processed

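MicroRNAs were measured in 3 arterial and 3 venous plasma samples, 1 Agilent array each. The authors deposited spot intensity values from Feature Extraction, background-subtracted but not normalized between arrays, with detection flags as other values per the file headers. Its version is 11.0.1.1 in the submitters' processing notes but 10.7.3.1 in the array headers. The authors also deposited a table of quantile-normalized linear intensity, used as an alternative.

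Control spots and outlier spots (8.72 to 10.4% of an array) were left out. Linear means were taken over the spots of each probe and then over the probes of each microRNA. Quantile normalization covered all 758 microRNAs, with a floor of 1 before log2. An array had 137 to 175 detected microRNAs, and 6 arrays are few, which limits precision. Differences, arterial minus venous, were tested over all 758 with limma 3.58.1 in R 4.3.3 (rat as block, two-sided). The tests were also run on simulated data, and no values from that run are given here. The labels give the rat of each sample, and deviations from the group means of same-numbered samples correlated by 0.80, 0.69 and 0.64 over 126 microRNAs. Group values were compared with exact tests over rats in Python 3.11.15.

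The members and lists were chosen with earlier results of these data known. Late-numbered microRNAs are named where they were detected on 3 or more arrays, passed the cutoff, are the other arm of such a hairpin or are named by the study (miR-1843a-3p); the others named were chosen after their values were seen. Sequences and positions are from RefSeq on GRCr8, while the array headers name rn4.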

Additional observations from a re-analysis of the deposited data

How the results depend on the processing

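The single arterial call, miR-3584-5p, was sensitive to the cutoff. At the unadjusted cutoff 0 late-numbered microRNAs were higher in arterial plasma with scaling to the 75th percentile of all microRNAs, with outlier spots kept, with a floor of 4, by the methods' t-test and without the replicate block, where 5, 9, 2, 4 and 5 of all 758 passed in either direction. The count was 2 without scaling, where miR-1224 and miR-3546 passed and miR-3584-5p did not. It was also 2 in the authors' table and in the fit restricted to microRNAs detected on any array (miR-3584-5p with miR-3546), and with a floor of 0.1 (miR-3584-5p with miR-6317). In these 4 settings the counts over all microRNAs were 5 of 758, 12 of 758, 6 of 201 and 13 of 758. It ranged from 0 to 1 with 1 rat left out (without rat 2 the 1 was miR-3546), and the venous count from 0 to 3, the 3 being miR-2985, miR-6328 and miR-3596a without rat 2. MiR-6317 and miR-3596a were detected on no array. MiR-2985 and miR-6328 are among the flat profiles that scaling raises on a dim array. Over all 758, 33 passed in either direction without rat 1, 19 without rat 2 and 17 without rat 3, against 6 with all rats. No late-numbered microRNA passed an adjusted p of 0.05 for plasma under any alternative in limma or the methods' t-test. The number that differed among rats was 1 with the 75th percentile of all (miR-3596d), 1 in the authors' table (miR-3560) and 2 in the fit restricted to microRNAs detected on any array (miR-3560 and miR-6215). Of these, miR-3596d was detected on no array and miR-6215 on 1. Over all microRNAs these settings gave 1 of 758, 14 of 758 and 24 of 201. MiR-3584-5p kept a positive difference under every alternative, from 0.71 with normexp to 1.42 without scaling.

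The small difference of miR-1224 turned to 0.67 with the 75th percentile of detected microRNAs, 0.68 with that of all, 1.10 without scaling and 0.62 in the authors' table, and lay between -0.39 and 0.33 with 1 rat left out. That of miR-1896 turned to 0.18 with either percentile, 0.60 without scaling, 0.015 with normexp, 0.13 in the authors' table and 0.079 with outlier spots kept, and lay between -0.11 and 0.023 with 1 rat left out. MiR-3593-3p lay between -0.22 and 0.39 with 1 rat left out, and miR-3557-3p turned to 0.041 without scaling and 0.044 in the authors' table. The causes were not tested.

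Counting any spot well above background as detection moved the arterial minus venous difference in the detected count to 2.67, and requiring at least 50% of the spots moved the gap in detected share to -5.14 percentage points. The gap in median level shrank to -0.28 with normexp and -0.38 in the authors' table. The arterial minus venous difference in the share of summed intensity, 2.88 percentage points, was 1.28 in the authors' table and 1.05 to 4.16 with 1 rat left out, the lowest without rat 2. Dim signal limits what can be said of the 112 undetected microRNAs.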

Other observations

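The 112 undetected late-numbered microRNAs gave intensities from -3.53 to 5.93, with a median of -0.69, and 75 of them never exceeded 1. The brightest of them was miR-3549, opposite miR-193a-5p, at 5.83, 5.14 and 3.71 in the arterial and 4.43, 5.93 and 4.40 in the venous samples of rats 1, 2 and 3. These values overlap those of microRNAs that were called detected, whose lowest late-numbered intensity on an array lay between 2.50 and 7.89. A value of this size therefore does not by itself separate detected from undetected microRNAs.

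The imprinted Dlk1-Dio3 region of chromosome 6, a large microRNA cluster of brain, embryo and placenta, holds 14 of the late-numbered microRNAs with a RefSeq position, counted from Dlk1 to Dio3. Of these, 13 were detected on no array, with intensities from -2.79 to 5.85. Detection on no array held for 81.2% of all late-numbered microRNAs and 73.5% of all 758, and the difference was not tested. MiR-1188-3p, a 17-base RNA, was detected on 2 arrays, and ranged from 5.43 to 7.89 over the 6 samples. Several of these microRNAs, such as miR-3543 and miR-3576, lie opposite an older microRNA of the cluster.

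Median GC and G content differed with detection among late-numbered microRNAs, and less so among lower-numbered ones, but neither difference was tested. The 18 late-numbered microRNAs detected on all arrays had a median GC content of 57.8% and a median G content of 33.9%, against 47.8% and 22.7% for the 100 undetected ones with a sequence. Among the lower-numbered microRNAs the medians were 47.8% and 23.8% for 88 detected on all arrays and 45.8% and 22.7% for 396 undetected ones. The 6 brightest late-numbered microRNAs had a median G content of 48.2%, and the other 12 detected on all arrays 25.5%. The part of base composition in the intensities was not tested.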
